A study of Mus musculus with 9 samples.

Results

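The genes described here are the cadherins, protocadherins and neuronal adhesion molecules of the embryonic mouse retina. They were chosen by gene symbol alone, as every listed cadherin (Cdh), protocadherin (Pcdh), contactin (Cntn), contactin-associated protein (Cntnap), L1 family member, Ncam, neurexin, neuroligin and Lrrtm gene, and 63 of the 12388 gene symbols in the deposited tables met that rule. Of these, 57 are in both tables and 6 only in the first. RefSeq annotates 121 protein-coding mouse genes that the rule matches, and 62 of them are listed; the remaining listed symbol, Pcdhgb8, is annotated as a pseudogene. Among the annotated genes with no row in either table are Chl1, Ncam2, Nlgn3, Cdh1, Cdh5 and all clustered protocadherins of the alpha type.

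The 9 samples are total RNA from retinas of CD-1 embryos at E12.5, with 3 samples in each of 3 groups. The heterozygote group was Neurog2GFP/+, the mutant group Neurog2GFP/GFP and the knock-in group Neurog2GFP/Mash1KI, so every group carries a GFP allele of Neurog2 and none lacks GFP. Neurog2 encodes a proneural basic helix-loop-helix transcription factor, and Mash1 encodes another one. Each sample came from optic cups dissected as pairs and dissociated to single cells; no cell sort is named. The tables give RPKM, read counts scaled by transcript length and library size, as one pooled value for each transcript and group. Values of single samples are not in them, the replicate spread can therefore not be shown, and the depth is unknown. Error enters only by way of the Cuffdiff test that the authors deposited, and a gene is called changed here when one of its transcripts has a q of 0.05 or less. Whether the samples of a group are separate litters is not stated in the labels, and the tests then cover only the spread between these samples, which may be technical.

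Neurog2 itself was at 30.2 RPKM in heterozygote and 36.2 RPKM in mutant retinas. In the second table it was at 35.5 RPKM in mutant retinas and rose to 112 RPKM with the knock-in. An RPKM value covers a whole transcript, coding or not, so these values do not check the loss of the coding part, and the groups are written as mutant-labelled and knock-in-labelled. All 11 progenitor markers and 13 of 14 ganglion cell markers of the retina were listed, with summed levels of 2570 and 1009 RPKM in the heterozygote. The Y-linked genes Kdm5d and Eif2s3y were at 12.8 and 21.9 RPKM in the heterozygote. In mutant-labelled retinas both were listed at 0, and with the knock-in they read 19.3 and 28.6 RPKM. Uty and Ddx3y, also Y-linked, read 3.48 and 4.555 RPKM in heterozygotes. They fell to 0.0168 and 0.0104 RPKM in the mutant-labelled group and read 9.44 and 8.81 RPKM with the knock-in. Cuffdiff called none of these genes, although the mutant-labelled pool held next to none of their RNA. Sex therefore cannot be told apart from genotype label in either comparison, and its part in the members' values was not tested. A number in the sample titles is the same for heterozygotes and mutants but differs for the knock-in, and whatever it stands for cannot be told apart from the knock-in.

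Cadherins are transmembrane proteins that bind the same cadherin on a neighbouring cell in the presence of calcium and are tied to actin through catenins; N-cadherin (Cdh2) holds the neuroepithelium of the retina together. The L1 family, the contactins and Ncam1 are immunoglobulin-type adhesion molecules of axons, known for axon outgrowth and bundling of ganglion cell axons. Neurexins on the presynaptic side bind neuroligins and Lrrtm proteins on the postsynaptic side.

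Setting the mutant-labelled against the heterozygote group asks which adhesion genes differ when both Neurog2 alleles carry GFP. These groups also differ in the values of Y-linked genes. Contactin 2 (Cntn2), neurofascin (Nfasc) and L1cam fell, each to less than 0.5 of its heterozygote level in the first table. No cadherin, protocadherin, neurexin or neuroligin was called in either direction. These 3 calls are 4.76% of the 63 genes, where 1.09% of the 12247 genes tested were called lower and 1.34% in either direction; no member was called higher, where 0.245% of all genes were. The 3 genes encode immunoglobulin-type proteins of axons. Each had p = 5e-05 and q = 0.0109, the smallest values that occur in the authors' deposited table.

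Cntn2, also known as TAG-1, encodes a membrane-anchored protein of growing axons. Its summed level over 4 transcripts was 22.9 RPKM in heterozygote and 9.87 RPKM in mutant-labelled retinas, a log2 ratio of -1.22. The most abundant transcript, which carried the call, fell from 14.3 to 6.50 RPKM, and its other transcripts were at 4.78, 2.12 and 1.70 RPKM and at 1.88, 0.738 and 0.750 RPKM. All 4 transcripts were thus lower in the mutant-labelled group, with log2 ratios from -1.52 to -1.14. In the second table the same mutant-labelled samples summed to 13.9 RPKM for Cntn2, above the 9.87 RPKM of the first and still below the heterozygote value. The size of its fall is therefore uncertain.

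Nfasc encodes neurofascin, an L1 family member that is later placed at nodes of Ranvier and axon initial segments. Its 3 transcripts summed to 19.1 RPKM in heterozygote and 7.94 RPKM in mutant-labelled retinas, a log2 ratio of -1.27. The called transcript fell from 12.04 to 5.27 RPKM. The next one was at 6.00 and 2.24 RPKM and did not pass the threshold (p = 0.0044, q = 0.291 in the authors' deposited table). The least abundant transcript was at 1.09 and 0.434 RPKM.

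L1cam encodes the founding member of the L1 family, a receptor on ganglion cell axons. Its 2 transcripts summed to 15.8 RPKM in heterozygote and 5.76 RPKM in mutant-labelled retinas, a log2 ratio of -1.46. The called transcript fell from 13.01 to 5.10 RPKM, and the other one was at 2.83 and 0.665 RPKM. L1cam is X-linked, and beside its difference Xist, which is transcribed from the inactive X chromosome, was at 184 and 505 RPKM in the same groups (p = 0.0105, q = 0.477 in the authors' deposited table). The part of sex in the L1cam difference was not tested. The authors' locus of L1cam also spans Arhgap4, Avpr2 and Naa10.

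**Figure D1:**
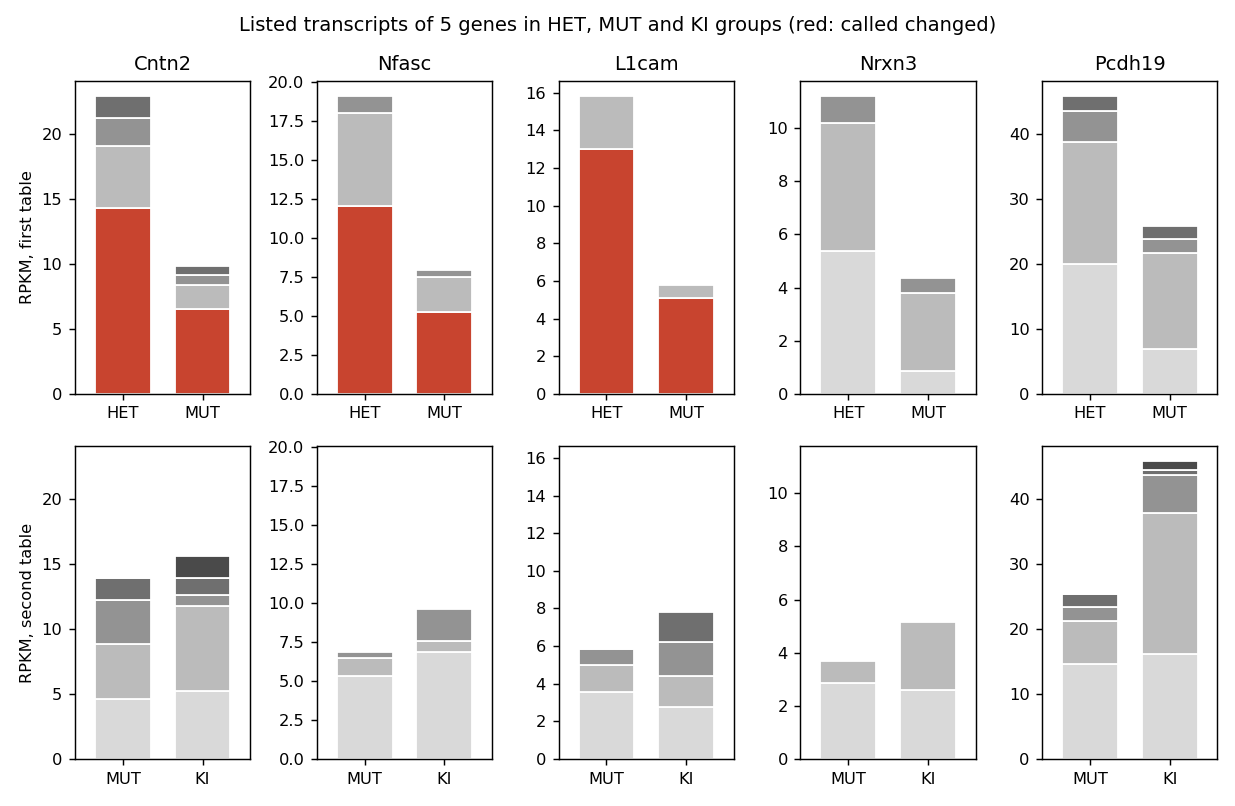
Stacked RPKM of the listed transcripts of 5 genes, 1 pooled value per group of 3 samples; the upper row is the table of heterozygote (HET) and mutant-labelled (MUT) groups, the lower row that of mutant-labelled and knock-in-labelled (KI) groups, and red marks a transcript called changed. Transcripts are stacked from the one with the highest first-group value upward, so a shade does not mark the same transcript in both rows. The called transcript makes up most of the level of Cntn2, Nfasc and L1cam in the upper row, and no transcript is called in the lower one.

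The positions of the called genes are on mm10, the build the submitters' processing notes name. Cntn2 lies on the minus strand of chromosome 1 from 132509427 to 132543256, with 23 exons in its longest coding transcript in GENCODE M21. Nfasc lies on the same strand from 132564690 to 132741797, with 30 exons. The genes are neighbours, with 21433 bases and no annotated gene between them. L1cam lies on the minus strand of chromosome X from 73853778 to 73896105, with 27 exons. Of the 12 genes listed in the first table that lie within 500000 bases of the Cntn2 and Nfasc pair, counting the pair, only Cntn2 and Nfasc were called. The next gene in order of p was Klhdc8a, at 2.11 and 1.19 RPKM (p = 0.00065, q = 0.0892 in the authors' deposited table), and Mdm4 was at 79.9 and 64.7 RPKM (p = 0.0242, q = 0.732 in that table).

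Sequences before RefSeq starts of these genes are shown because the 3 moved together and because basic helix-loop-helix factors bind E-boxes. Each of these starts, and the stretch shown before it, lies inside the gene's GENCODE span given above. The region before the outer end of that span was not searched. The window searched was the 250 bases before each RefSeq start (build GRCm38.p6), on both strands, for the E-box CAGNTG, which reads CANCTG on the other strand. The stretch shown is the part of that window in which GENCODE annotates no exon, 5′ to 3′ on the gene's strand, with the E-box in capitals; Nfasc is shown at the more upstream of its 2 starts and L1cam likewise. The stretches are chr1:132542941-132543028 for Cntn2, chr1:132707407-132707576 for Nfasc and chrX:73880835-73881084 for L1cam, all on the minus strand.
Cntn2: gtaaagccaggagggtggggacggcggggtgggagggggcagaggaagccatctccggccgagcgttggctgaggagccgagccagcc
Nfasc: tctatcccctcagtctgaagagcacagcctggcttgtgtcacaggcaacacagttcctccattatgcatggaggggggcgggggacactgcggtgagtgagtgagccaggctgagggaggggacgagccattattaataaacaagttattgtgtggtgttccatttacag
L1cam: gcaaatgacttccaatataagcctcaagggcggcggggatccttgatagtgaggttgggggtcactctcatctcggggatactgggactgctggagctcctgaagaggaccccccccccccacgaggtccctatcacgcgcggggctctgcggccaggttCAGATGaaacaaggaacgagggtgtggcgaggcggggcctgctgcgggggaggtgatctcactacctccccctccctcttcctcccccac
L1cam holds 1 E-box, which begins 90 bases before that start. Cntn2 and both starts of Nfasc hold none in these windows, which do not reach the outer ends of the genes. At least 1 such E-box stands in this window in 48.2% of the 27025 genes that have a sequence before a RefSeq start. The share is 41.9% of the 9285 of them that are listed in the deposited tables. Among members it is 52%, or 13 of the 25 with such a sequence.

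None of the other 7 axonal genes was called. Nrcam, the remaining listed member of the L1 family, was at 11.9 RPKM in heterozygote and 10.1 RPKM in mutant-labelled retinas (smallest p of its transcripts 0.391 in the authors' deposited table). Ncam1, the neural cell adhesion molecule and the most abundant of this kind, was at 54.7 and 52.4 RPKM, so its level differed far less than those of the called genes. Cntn6 was at 12.9 and 12.01 RPKM. Cntn4 was at 3.40 and 2.01 RPKM, Cntn1 at 5.00 and 3.65 RPKM, and Cntn3 at 2.23 and 2.25 RPKM. Cntnap2, which encodes the Cntn2 partner Caspr2, was at 17.8 and 13.6 RPKM (p = 0.0517 in the authors' deposited table). Of the 10 listed axonal genes 9 had lower summed RPKM, with a median log2 ratio of -0.42, beside a median of 0.03 over all genes.

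All 7 listed synaptic organizers had lower summed RPKM and none was called; in all, 45.3% of genes were lower. The neurexin gene Nrxn3 was at 11.2 RPKM in heterozygote and 4.37 RPKM in mutant-labelled retinas, a log2 ratio of -1.36. Most of this lay in a transcript at 5.38 and 0.865 RPKM, with p = 0.123 in the authors' deposited table; the transcript that was most abundant over both groups was at 4.82 and 2.92 RPKM, a log2 ratio of -0.72. Nrxn2, another neurexin gene, was at 1.39 and 0.505 RPKM.

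Of their postsynaptic partners, the neuroligins differed less in summed RPKM. Nlgn1 was at 54.5 and 47.9 RPKM and Nlgn2 at 20.2 and 18.6 RPKM (smallest p 0.288 and 0.0832 in the authors' deposited table). Lrrtm2 and Lrrtm4, leucine-rich repeat partners of neurexins, were at low levels in both groups, 1.88 and 1.02 RPKM and 2.04 and 1.62 RPKM.

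Cadherins went the other way in their summed values, although none passed the test. Of the 10 listed, 8 were higher in the mutant-labelled group, where 54.7% of all genes were higher, and their median log2 ratio was 0.29. Cdh11, the most abundant member of all, was at 146 RPKM in heterozygote and 179 RPKM in mutant-labelled retinas (p = 0.0575, q = 0.993 in the authors' deposited table). Cdh2, or N-cadherin, was at 103 and 109 RPKM. Cdh4, or R-cadherin, was at 22.7 and 28.7 RPKM; 3.04 RPKM of the latter is a transcript that was at 0.102 RPKM in the heterozygote (p = 0.227 in the authors' deposited table).

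The smallest p-values on the higher side belonged to cadherins of the type II group. Cdh20 was at 5.96 and 8.44 RPKM (p = 0.003, q = 0.237 in the authors' deposited table). Cdh9 was at 3.36 and 4.82 RPKM (p = 0.0095, q = 0.451 in the authors' deposited table). Cdh7 was at 1.16 and 1.71 RPKM. The remaining listed cadherins, whatever their type, were Cdh3, Cdh6, Cdh8 and Cdh24, with log2 ratios from -0.23 to 0.29. Neither Cdh20 nor Cdh9 can be called higher after adjustment over the table.

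**Figure D2:**
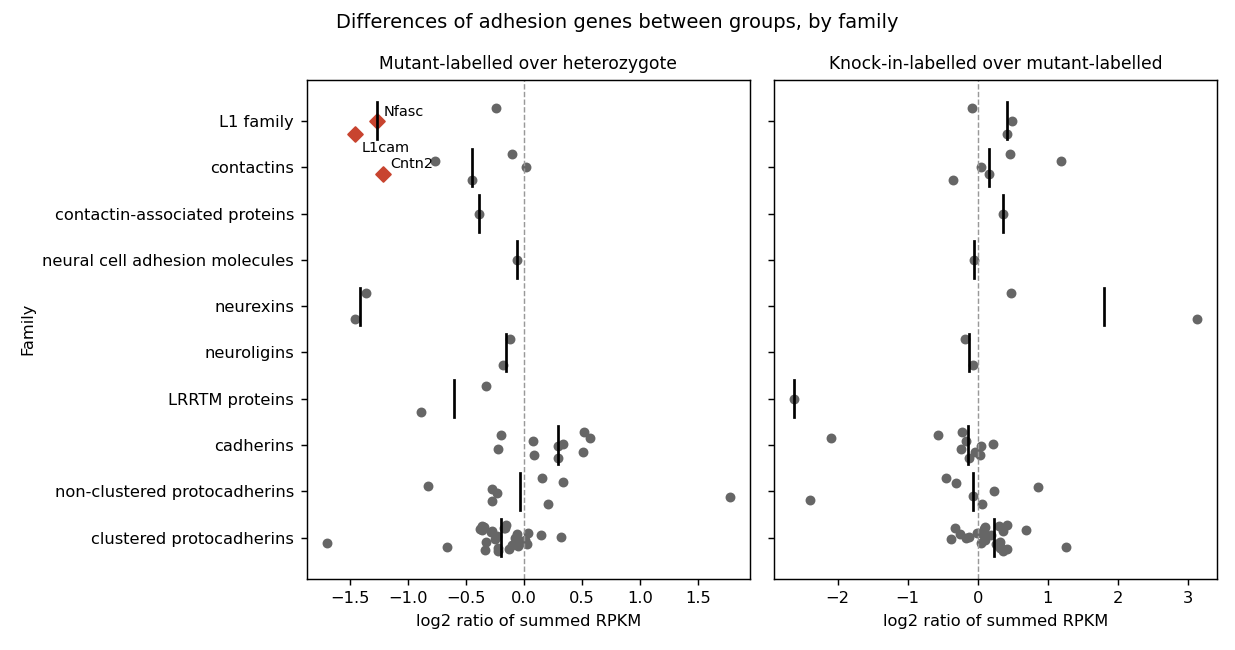
Log2 ratio of summed RPKM (horizontal axis) for 62 of the members by family (vertical axis), for the mutant-labelled over the heterozygote group on the left and the knock-in-labelled over the mutant-labelled group on the right. Each point is 1 gene, black bars are medians of the genes drawn and red diamonds are called genes. The calls, Cntn2, Nfasc and L1cam, lie between -1.46 and -1.22 on the left, cadherins lie mostly to the right of 0 there, and the right panel holds no call.

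Protocadherins outside the gene clusters are cadherin relatives with cytoplasmic tails of their own, and 4 of the 8 listed were lower and 4 higher. Pcdh19, the most abundant of them, was at 45.9 RPKM in heterozygote and 25.8 RPKM in mutant-labelled retinas, a log2 ratio of -0.83. Most of this came from a transcript at 19.97 and 6.88 RPKM whose p was 0.517 in the authors' deposited table; the transcript with the smallest p, 0.0308 (q = 0.803 in that table), was at 18.8 and 14.8 RPKM. Pcdh19 is X-linked like L1cam, and the part of sex in its values was not tested. Pcdh7 was at 16.5 and 20.7 RPKM, Pcdh18 at 19.3 and 15.9 RPKM, and Pcdh9 at 7.85 and 8.75 RPKM. Pcdh11x had the largest positive ratio, 1.77, at levels of 0.285 and 0.974 RPKM, near the lower limit of the table, which lists no transcript below 0.906 RPKM in its higher group. Pcdh11x is X-linked too, and the part of sex in its values was not tested.

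Clustered protocadherins are encoded side by side on chromosome 18, where the gamma genes share constant exons, and the authors' tables place all 28 listed ones in a single locus. Their reads can therefore be divided between neighbours in more than one way, and they do not count as separate observations. In summed RPKM, 23 were lower and 5 higher in the mutant-labelled group, with a median log2 ratio of -0.20, and none was called. Pcdhgc3, the most abundant, was at 9.90 and 8.91 RPKM; the other 27 were between 0.299 and 3.29 RPKM in either group, among them Pcdhga4 (1.11 and 1.39 RPKM), which had the largest positive ratio, Pcdhga2 (2.04 and 1.72 RPKM), Pcdhgb2 (1.499 and 1.17 RPKM) and Pcdhb2 (2.06 and 1.76 RPKM).

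**Figure D3:**
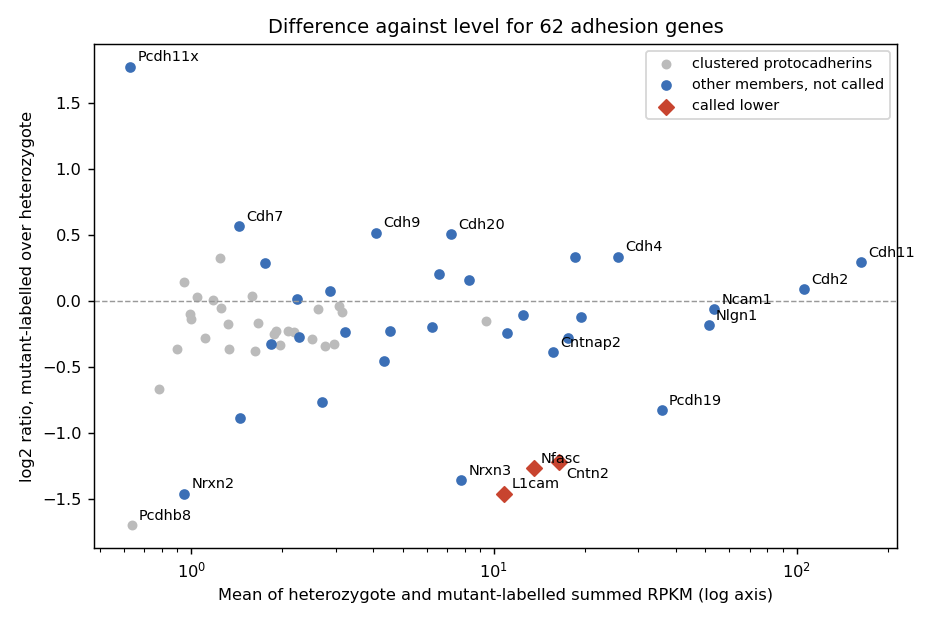
Log2 ratio of mutant-labelled over heterozygote summed RPKM (vertical axis) against the mean of both groups' summed RPKM (horizontal log axis), 1 point per gene for 62 members. The called genes stand at intermediate levels, Cdh11 and Cdh2 at the highest levels lie at 0.29 and 0.09, and Pcdh11x and Pcdhb8, with the widest ratios of 1.77 and -1.70, are among the least abundant.

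Over all 63 genes, 45 or 71.4% were lower in the mutant-labelled group, beside 45.3% of all genes, and the median log2 ratio was -0.20. Without the clustered protocadherins, 22 of 35 were lower, or 62.9%. At an unadjusted p under 0.05, 8 of the 103 member transcripts were found, in 7 genes, beside 5.18% of all transcripts.

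Markers of ganglion cells and progenitors also differed between these groups, and their lists were chosen with earlier results of these data known. All 13 listed ganglion cell markers were lower in the mutant-labelled group, where 45.3% of all genes were lower. Of them 9 were called, where 1.34% of all genes were called in either direction. Their median log2 ratio was -1.02, with summed levels of 1009 and 496 RPKM. All 11 progenitor markers were higher, where 54.7% of all genes were, none was called, and their median log2 ratio was 0.32. No marker of either list was at 0, and none of the 8 other marker lists held a called gene. In whole retinas, fewer ganglion cells and less RNA of these genes per cell cannot be told apart. The part of cell makeup in the values of Cntn2, Nfasc and L1cam, or of the cadherins, was not tested.

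In the same comparison 4 genes from 6 lists of molecules that work with these proteins were called, where 1.34% of all genes were. Of the catenins and other cadherin anchors, 11 were listed and none was called, with a median log2 ratio of -0.06; the most abundant, beta-catenin (Ctnnb1), was at 414 and 394 RPKM. Among 12 other members of the cadherin superfamily, Cdhr1 fell from 4.52 to 2.45 RPKM, and Celsr3, an axon-tract cadherin, was at 10.4 and 5.71 RPKM (smallest p 0.00055, q = 0.0782 in the authors' deposited table). Among 23 other immunoglobulin adhesion genes, Dscam, which serves self-avoidance of retinal neurites, fell from 2.42 to 1.23 RPKM.

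Among 27 other synaptic organizers, Elfn1 fell to 0.348 RPKM from 0.982 RPKM and a transcript of Flrt2 rose from 14.5 to 24.5 RPKM. None of 7 nectins and synaptic cell adhesion molecules was called; Cadm1, the most abundant, was at 120.4 and 120.02 RPKM. None of 9 cytoskeletal anchors was called either, and ankyrin 2 (Ank2), which binds L1 family tails, was at 248 and 342 RPKM (smallest p 0.0778 in that table).

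The second table sets the knock-in-labelled group against the mutant-labelled one. Their genotype labels differ in one allele, the Mash1 knock-in in place of GFP. These groups also differ in the number in the sample titles and in the values of Y-linked genes and Xist. None of the 57 listed members was called by Cuffdiff, where 1.67% of 11989 genes were called in either direction, 0.634% lower and 1.03% higher, and none of the 98 member transcripts had an unadjusted p under 0.05, where 7.00% of all transcripts did. The smallest member p was 0.0626, that of Cntnap2, in the authors' deposited table. The summed values of the members had a median log2 ratio of 0.08, with 34 higher and 23 lower, where 49.7% of all genes were higher and 50.3% lower.

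The genes called lower in the first comparison had knock-in-labelled values above the mutant-labelled ones in the sum, without passing the test. Cntn2 had 13.9 RPKM in the mutant-labelled group of this table and 15.6 RPKM with the knock-in; of its 5 transcripts, 3 were higher and 2 lower, one of the latter at 3.36 and 0.791 RPKM. Nfasc was at 6.83 and 9.60 RPKM and L1cam at 5.88 and 7.82 RPKM (smallest p 0.103 and 0.268 in the authors' deposited table). For L1cam the direction depends on the transcript, since the one at 3.56 RPKM in the mutant-labelled group was at 2.75 RPKM with the knock-in.

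Nrxn2 and Nrxn3 were higher in the sum, Nrxn2 at 0.201 and 1.77 RPKM and Nrxn3 at 3.70 and 5.17 RPKM, with smallest p of 0.176 and 0.350 in the authors' deposited table. With transcripts paired by their mutant values, the Nrxn3 transcript at 4.82 and 2.92 RPKM in the first table was at 2.85 and 2.59 RPKM here, and the one at 5.38 and 0.865 RPKM was at 0.851 and 2.58 RPKM, so the direction of its sum rests on the latter. Nlgn1 and Nlgn2 were at 47.0 and 44.9 RPKM and at 18.2 and 16.0 RPKM. Lrrtm4 was at 1.59 and 0.259 RPKM, the lowest ratio of any member, with p = 0.146 in the authors' deposited table. The second table lists no transcript below 1.04 RPKM in its higher group. The wide ratios of Nrxn2 and Lrrtm4, and of Cdh7 and Pcdh10 below, come from levels not far above that limit.

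Cntn6, a contactin of developing neurons, was at 11.8 RPKM without and 16.2 RPKM with the knock-in (smallest p 0.0671 in the authors' deposited table). Cntnap2 was at 13.3 and 17.1 RPKM, close to its 17.8 RPKM in the heterozygote. Cntn4 was at 1.94 and 4.43 RPKM. Ncam1 was at 51.4 and 49.3 RPKM and Nrcam at 9.90 and 9.34 RPKM.

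Among the cadherins 7 of 10 were lower in the knock-in-labelled group, beside 50.3% of all genes, and none was called. Cdh11 was at 176 and 162 RPKM, Cdh2 at 107 and 109.5 RPKM, and Cdh4 at 28.1 and 32.9 RPKM. Cdh20 was at 8.28 and 8.07 RPKM and Cdh9 at 4.72 and 4.04 RPKM. Cdh8 was at 5.72 and 3.87 RPKM, and Cdh7 at 1.68 and 0.394 RPKM (p = 0.287 and 0.136 in the authors' deposited table).

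Pcdh19 had the widest difference in RPKM of all members here, 25.4 RPKM without the knock-in against 45.9 RPKM with it, the same as its heterozygote level to 3 digits. Most of this was 1 transcript at 6.75 and 21.7 RPKM, whose p was 0.440 in the authors' deposited table. The smallest p, 0.115 in the authors' deposited table, was that of a transcript listed at 0 and 1.36 RPKM. Beside these values Xist was at 496 and 174 RPKM. Pcdh7 was at 20.3 and 16.3 RPKM, Pcdh18 at 15.6 and 18.3 RPKM, Pcdh9 at 8.58 and 6.25 RPKM, and Pcdh10 at 2.01 and 0.380 RPKM. Of 24 clustered protocadherins 18 were higher and 6 lower, with a median log2 ratio of 0.23. Pcdhgc3 was at 8.79 and 11.8 RPKM, Pcdhgb2 at 1.15 and 1.85 RPKM, Pcdhga2 at 1.69 and 1.30 RPKM, and Pcdhb2 at 1.01 and 2.42 RPKM.

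Markers of several other tissues differed in this comparison, in which 49.7% of all genes were higher and 1.67% were called in either direction. Cdh1 and Cdh5, the cadherins of epithelium and endothelium, have no row. All 9 listed pigment epithelium markers were higher, 7 of them called, with summed levels of 24.01 and 110.1 RPKM. Lens markers summed to 32.1 and 103.4 RPKM over 6 genes, with 3 called higher and Foxe3 at 0 in the mutant-labelled group. Blood markers summed to 35.1 and 131 RPKM over 7 genes, with 2 called higher. Mesenchyme markers summed to 19.4 and 33.4 RPKM over 6 genes, with 2 called higher. Of 2 surface ectoderm markers, summing to 10.2 and 16.8 RPKM, Krt18 was called higher, and 4 markers of optic stalk and ciliary margin summed to 105 and 119.9 RPKM, with Gja1 called higher. The 2 listed endothelium markers were both lower, at a sum of 29.5 and 24.01 RPKM, and none was called. The 11 progenitor markers summed to 3063 and 2995 RPKM, with none called. Immediate early genes were lower, with 6 called, at 196 and 48.7 RPKM over 8 genes. The 13 ganglion cell markers were all higher, with 2 called and a median log2 ratio of 0.40. Their part in the members' values was not tested. Of the lists of partner genes, the one call was a transcript of Flrt2, which fell to 11.3 RPKM from 28.2 RPKM.

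Both comparisons share the mutant-labelled samples, so a member's ratios in the tables are not independent, and the levels are set side by side here with no test. Each table has its own normalization. For 5047 genes that have 1 transcript in each table, the median log2 ratio of the mutant value in the second table to that in the first was -0.03, and 98.6% lay within 0.05 of that median. Of the 57 members in both tables, 45 had transcripts that could all be paired by this value. For 7 members the summed mutant values themselves differed by more than 0.05 from the median shift, among them Nrxn2, Nrxn3, Pcdhb2 and each of the 3 called genes. The 2 mutant values were 9.87 and 13.9 RPKM for Cntn2, 7.94 and 6.83 RPKM for Nfasc and 5.76 and 5.88 RPKM for L1cam, and none of the listed transcripts of Cntn2 or L1cam could be paired. Knock-in-labelled levels of these genes can therefore not be placed on the scale of the heterozygote as closely as those of Cdh11 or Ncam1.

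**Figure D4:**
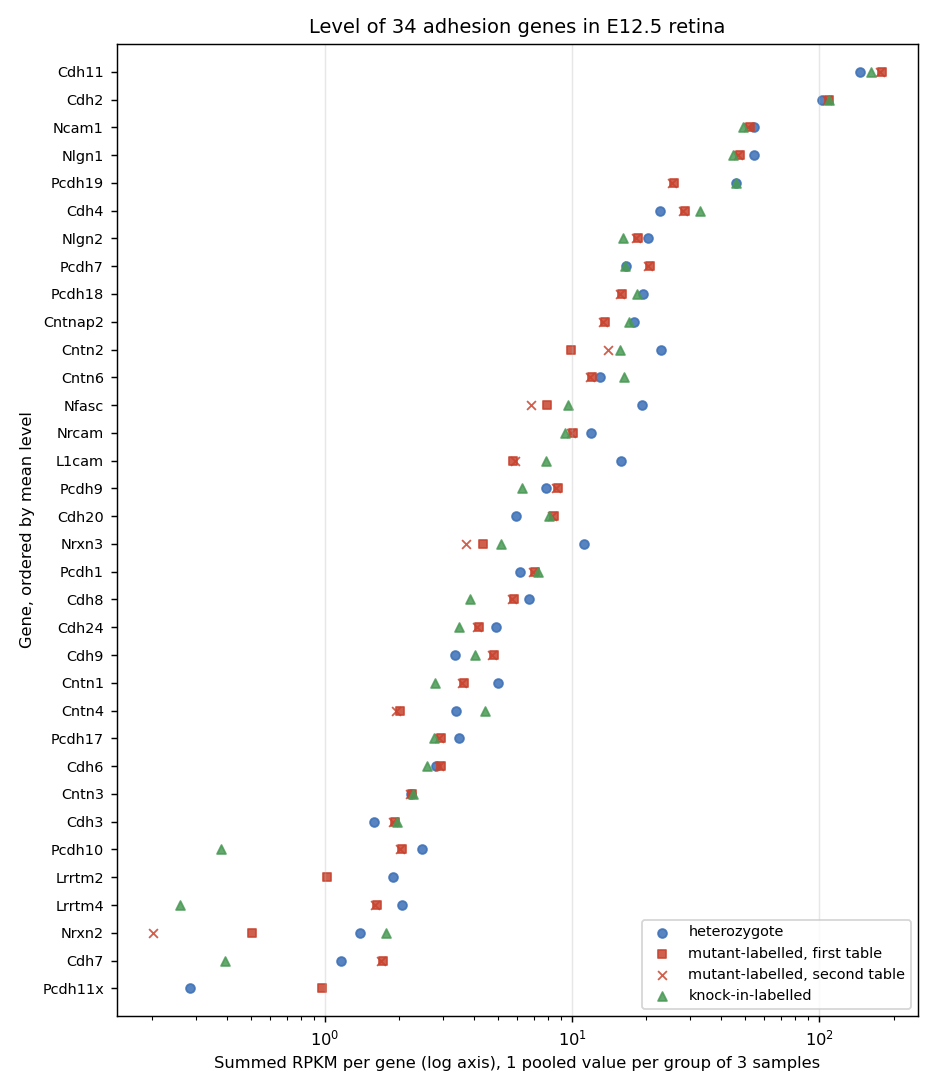
Summed RPKM (horizontal log axis) of 34 members outside the protocadherin clusters (vertical axis, ordered by mean level), with 1 pooled value per group of 3 samples and the mutant-labelled value from each table. Blue circles of Cntn2, Nfasc, L1cam and Nrxn3 lie to the right of the other symbols, Pcdh19 has its mutant-labelled symbols apart from the other groups, and the mutant-labelled symbols of Cntn2 lie apart from each other.

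In order of mean level, the members ran from Cdh11 and Cdh2 through Ncam1, Nlgn1, Pcdh19, Cdh4, Nlgn2, Pcdh7, Pcdh18 and Cntnap2 to Cntn2, Cntn6, Nfasc, Nrcam and Pcdhgc3. Whether neighbours in this order differ beyond their spread cannot be said without values per sample. As deposited, Cntn2 had 22.9 RPKM in heterozygotes and 15.6 RPKM with the knock-in, Nfasc at 19.1 and 9.60 RPKM, and L1cam at 15.8 and 7.82 RPKM. These knock-in-labelled values lay below the heterozygote values, and with the mutant values of the tables apart they are descriptions only. Nrxn3 was likewise lower, at 11.2 and 5.17 RPKM. Cdh4, in contrast, was at 22.7 and 32.9 RPKM.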

How the data were processed

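Retinal RNA of 9 samples was compared in 3 groups taken from the sample titles. Per the submitters' processing notes, Bowtie2, Cufflinks and Cuffdiff were run on mm10, in versions not given in the sources used here. RPKM values are as the authors deposited them, 1 per transcript and group, with the replicates of a group pooled, and their own test. Per the file headers the tables also give a test statistic, a score without fixed range that was not used, and a p-value and a q-value; the q-value was taken as deposited, over all rows of its table. Depth is not given, so no counting interval was made.

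With Python 3.11.15 and pandas 2.3.3, RPKM was summed per gene symbol over listed transcripts, and log2 ratios were taken without a pseudocount. Rows with a date or no symbol, 173 and 172 of them, were left out of everything done by gene. The authors' loci count from 0 and were converted to start at 1. The reading and calling steps were tested on simulated data. Named genes are all called members, the 15 most abundant, the 6 largest rises and falls of summed RPKM in each comparison at 1 RPKM or more, and the most abundant of each family, 32 in all, of which 1 is not reported here or drawn; others are named to account for every family. The members and lists were chosen with earlier results of these data known. Alternatives changed the q threshold, the low-value filter, the pseudocount, the transcript used, the centring and the protocadherin clusters. Starts and the sequences before them came from RefSeq, exons from GENCODE M21.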

Additional observations from a re-analysis of the deposited data

How the results depend on the processing

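The count of 3 called members between mutant-labelled and heterozygote retinas held at q of 0.1, at q of 0.02, with the most abundant transcript alone, with transcripts of 2 RPKM or more and without clustered protocadherins; it was 2 without the X-linked members, an alternative chosen after seeing the data. The count of 0 in the other comparison held under the same alternatives, the X-linked one aside. Most of these settings could not have moved the counts. The 3 calls had a Cuffdiff q of 0.0109, and the next member, Cdh20, had 0.237. In the other comparison the smallest member q was 0.761. The called transcripts lay above 2 RPKM in the heterozygote, and none was of a clustered protocadherin. The median log2 ratio of the members stayed between -0.23 and -0.15 in the first comparison. In the second it was 0.08 and moved to -0.038 without clustered protocadherins, so its sign rests on them. The median log2 ratio of knock-in-labelled over heterozygote levels was -0.06, -0.04 after scaling by the mutant values and -0.04 over paired transcripts, the last chosen after seeing the data. Of 189 alternatives for single genes, 185 kept the sign of the ratio, but many of them could not have changed it. The same pseudocount added to both groups leaves the sign as it is. For genes with 1 listed transcript, the most abundant transcript repeats the reported ratio. With the most abundant transcript alone, the sign changed for Cdh8 (0.06) and Pcdh9 (-0.14) in the first comparison. In the second it changed for L1cam (-0.37) and Nrxn3 (-0.14). None of these was a called value. No paired analysis was possible because the tables hold 1 pooled value per group, and leaving out each replicate in turn was not run for the same reason.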
